A study of Mus musculus with 6 samples.

Results

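The 10 genes described here encode the cyclins A2, B1, B2, D1, D2, D3, E1 and E2 and the cyclin-dependent kinases 1 and 2, the set that carries mammalian cells through the division cycle. They were taken by symbol from a table of 24421 genes, all 10 were listed, and all 10 were among the 13479 genes with enough reads to be tested. RNA was sequenced from mouse cultures that the study describes as primary endothelial cells. They were grown from the capillary-rich stria vascularis together with the spiral ligament, both in the cochlear lateral wall. The 3 *Nhe6*-knockout and 3 wildtype cultures gave 1 library each, to find out how expression differed between the genotypes. The knockout mice carried a targeted disruption, the cells of each culture were pooled from several mice at postnatal days 10 to 12, and no culture was treated. The labels give C57BL/6N as the background of both groups, whereas the methods of the study name C57bl6/j, so the substrain of each group is not settled here. The cells were purified by fluorescence-activated sorting and expanded in flasks, and the density and passage of each culture at lysis are not given in the sources used here.

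Cyclins are regulatory subunits that accumulate and are destroyed in turn, and a cyclin-dependent kinase is active only while a cyclin is bound to it. D-type cyclins link growth signals to the start of the cycle, E-type cyclins with CDK2 open DNA replication, cyclin A serves replication and the period after it, and B-type cyclins with CDK1 drive entry into mitosis. Transcripts of the A- and B-type cyclins and of *Cdk1* are scarce in resting cells and abundant in dividing ones, whereas those of the D-type cyclins follow growth factors and adhesion more than the phase of the cycle. Endothelial cells in intact capillaries rarely divide, and they re-enter the cycle when placed in culture with growth factors.

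The libraries held 25587097 to 29126232 reads on genes, and counts are given after scaling by TMM to the mean library size ("normalized counts"). Values of single cultures are listed in the order of replicates 1, 2 and 3 of each genotype throughout. The 9 genes that passed an adjusted p of 0.05 in edgeR held no member. Of them, chosen after their values were seen, *Hprt* (purine salvage) had 12.7 to 17.7 normalized counts in knockout and 1834 to 2984 in wildtype cultures, and *Nnt*, a gene partly deleted in C57BL/6J mice, had 1225 to 1393 and 3555 to 4514. Genetic background and the *Nhe6* genotype cannot be told apart where they differ together. *Nhe6*-knockout replicates 1 and 2 were far closer to each other than other replicates were, with a chi-square per degree of freedom of 4.91 over genes against 90.1 to 398 for the other pairs within a genotype, and they still differed by more than sampling noise. Wildtype replicate 2 stood apart on the first principal component, at 106 against -28.5 to -6.52. It also had 409.7 normalized counts of *Emcn* against 9900 to 18393 in the other libraries, and 27187 of the fibroblast collagen gene *Col1a1* against 207 to 1228. Listed markers of each cell type went both ways in this library. Of endothelial genes, *Flt1* (3175) and *Cd34* (4867) were highest there and *Eng* (867) lowest. Of fibroblast genes, *Col1a2* (186310) was highest, and *Pdgfra* (10087) and *Dcn* (1863) were lowest. Of mural genes, *Acta2* (16275 against 29.3 to 1204) was highest and *Pdgfrb* (7793) lowest. *Cdh5*, the endothelial cadherin, was lower in knockout cultures, at 179 to 232 against 2509 to 5200.0 (adjusted p = 0.0133). Of 13 listed endothelial markers, *Cldn5* had 0 reads, *Tie1* at most 2 and *Pecam1* at most 8 in any library, and the summed level of the list was 605 to 934 CPM (counts scaled to library size) in knockout and 575 to 851 in wildtype libraries. The 10 fibroblast markers summed to 12105 to 12484 and 11167 to 16858, the 10 mural markers to 801 to 883 and 590 to 1279, and the 10 macrophage markers to 19.1 to 33.7 and 4.01 to 47.2. The 8 melanocyte, 7 epithelial and 6 Schwann cell markers each summed to at most 69.9 in any library. These sums overlapped between the genotypes for all 7 lists, although a sum rests mostly on its most abundant genes. Among single markers, 5 of 10 mural genes (*Pdgfrb*, *Rgs5*, *Des*, *Notch3* and *Abcc9*) and 3 of 10 fibroblast genes (*Col3a1*, *Dcn* and *Postn*) lay entirely higher in knockout cultures, against 10.3% of all genes tested. Of 8 tested endothelial genes, 2 (*Cdh5* and *Flt1*) lay entirely lower, against 9.57%. The endothelial marker *Vwf*, with too few reads to be tested, lay entirely higher, at 5.68 to 23.2 normalized counts in knockout and 0 to 3.91 in wildtype cultures. Among the tested genes of the same lists, 4 mural and 3 fibroblast genes had log2 fold changes below 0 and 3 endothelial genes above 0, all with overlap. Of the tested genes without overlap, *Notch3* had 1843 to 2830 and 692 to 1380 normalized counts (adjusted p = 0.209 in edgeR and 0.0155 in DESeq2). *Dcn* had 3834 to 4835 and 1863 to 2513 (0.0952 in edgeR and 5.42e-05 in DESeq2), and *Flt1* had 378 to 578 and 920 to 3175 (0.242 in edgeR and 0.0104 in DESeq2). The part of cell composition in the results below was not tested. In bulk RNA, fewer dividing cells and less RNA per dividing cell cannot be told apart.

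Promoter windows from RefSeq on GRCm38.p6 were taken for 6 of the 10 genes: *Ccnb1*, *Ccnb2*, *Ccnd3*, *Ccne1*, *Cdk1* and *Cdk2*. The 250 bases before each start were searched on both strands for CCAAT, the box bound by NF-Y, for TTTGAA, the cell cycle genes homology region, and for the E2F-type string TTCCCGC as well as TTGGCGC, or for TTCGCGC as well as TTGCCGC. Among all 32851 windows of this length, 33.8% held CCAAT, 16% held TTTGAA and 7.89% held an E2F-type string. *Ccnb1* held CCAAT 2 times, *Ccnb2* and *Cdk1* 3 times each, *Cdk2* 1 time, and of the 2 *Ccnd3* windows 1 held it 1 time. *Cdk1* held TTTGAA 2 times and *Ccnb2* 1 time. E2F-type strings occurred 2 times in *Cdk1*, 2 times in *Cdk2* and 1 time in *Ccnb1*, where the string overlapped a CCAAT box, and *Ccne1* held none of these letters in this window. Stretches of the CDK1 and cyclin B genes and, beside them, of *Cdk2* are shown, the former because they carry repeated boxes and the latter with its 1 box, with CCAAT or TTTGAA on either strand in capitals:
*Ccnb1*, chr13:100786546-100786601, minus strand: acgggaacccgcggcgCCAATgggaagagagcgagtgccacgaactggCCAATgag
*Ccnb2*, chr9:70421555-70421654, minus strand: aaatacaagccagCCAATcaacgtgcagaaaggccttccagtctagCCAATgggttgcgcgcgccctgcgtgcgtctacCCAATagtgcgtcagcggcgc
*Cdk1*, chr10:69352913-69353052, minus strand: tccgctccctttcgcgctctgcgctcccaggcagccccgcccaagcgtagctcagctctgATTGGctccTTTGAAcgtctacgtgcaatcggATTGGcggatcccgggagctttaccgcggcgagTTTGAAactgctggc
*Cdk2*, chr10:128705052-128705111, minus strand: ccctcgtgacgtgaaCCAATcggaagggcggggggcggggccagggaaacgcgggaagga
In GENCODE M21 the last 25 bases of the *Ccnb1* stretch and the last 26 of the *Cdk1* stretch lie past the annotated start of the gene. In *Ccnb2* the 3 boxes began 87, 54 and 21 bases before the start, in *Ccnb1* the 2 boxes began 99 and 67 bases before it, and in *Cdk1* the nearest 2 began 80 and 48 bases before it. Each match is a description of the letters and not a measured binding site.

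The mitotic members had more reads in every *Nhe6*-knockout culture than in any wildtype culture, from 3.27-fold for *Cdk1* to 11.2-fold for *Ccnb1*. None of the 10 members passed an adjusted p of 0.05 in edgeR's quasi-likelihood test over all genes, in a comparison in which 0.0668% of genes did and 0.0297% did so with higher values in knockout cultures. At an unadjusted p under 0.05, 6 of the 10 were higher in knockout cultures (*Ccna2*, *Ccnb1*, *Ccnb2*, *Ccne1*, *Ccne2* and *Cdk1*) and 0 were lower, against 6.14% and 5.71% of all genes tested. The knockout libraries lay entirely above the wildtype libraries for 7 of the 10 members, these 6 and *Cdk2*, and entirely below for 0, against 10.3% and 9.57% of all genes. The median log2 fold change of the 10 was 1.25, and that of all genes tested was -0.016. With DESeq2's Wald test, 5 members had an adjusted p under 0.05 (*Ccna2*, *Ccnb1*, *Ccnb2*, *Ccne2* and *Cdk1*), all higher, where 2.85% of genes were called higher and 4.69% in either direction. Without wildtype replicate 2, edgeR's test called 3 members higher (*Ccna2*, *Ccne1* and *Cdk1*), where 1.62% of genes were called higher and 2.88% in either direction. With knockout replicates 1 and 2 summed into 1 library, it called 0 members and 0.00731% of genes, and 5 were higher at an unadjusted p under 0.05, where 3.68% of genes were.

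**Figure D1:**
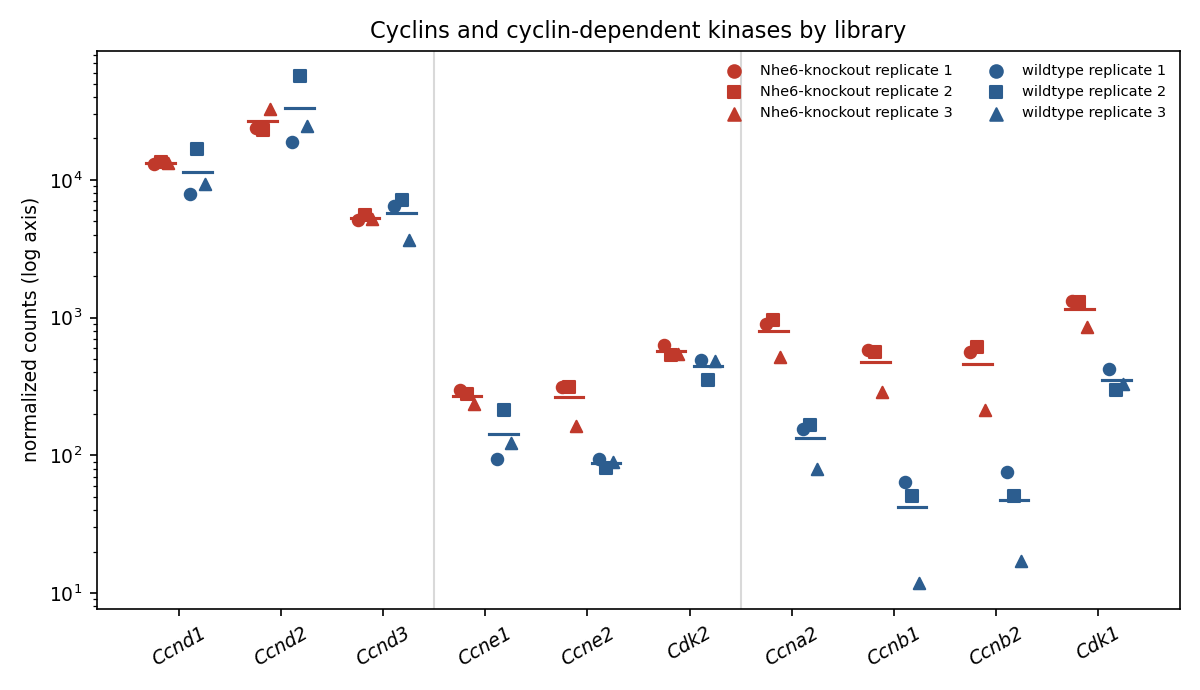
Normalized counts (log axis) of the 10 members in each library, with *Nhe6*-knockout in red, wildtype in blue, a marker shape per replicate and a bar at the mean of 3 libraries. The D-type cyclins overlapped between the genotypes, and each of the other 7 genes was higher in all 3 knockout libraries than in all 3 wildtype libraries.

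The B-type cyclins showed the widest gap between the genotypes. *Ccnb1*, on chromosome 13 from 100778650 to 100786570 (GRCm38), encodes cyclin B1, the cyclin that brings CDK1 into mitosis. It had 584, 559.5 and 289.7 normalized counts in knockout cultures and 64.5, 50.6 and 11.8 in wildtype cultures. Knockout replicate 3 was the lowest of its group and still above every wildtype culture. Group means stood at 478 ± 163 and 42.3 ± 27.3 (SD, n = 3 each), and the 11.2-fold difference was 3.49 ± 0.63 on the log2 scale (± standard error, here and below, adjusted p = 0.106). *Ccnb2*, on chromosome 9 from 70407692 to 70421547, encodes cyclin B2, the relative found mainly at the Golgi. It had 564, 612 and 214 normalized counts in knockout and 75.3, 50.6 and 17.1 in wildtype cultures. The 2 genes ordered the libraries in nearly the same way, with knockout replicate 3 and wildtype replicate 3 lowest in their groups. *Ccnb2* differed by 3.27 ± 0.64 on the log2 scale (adjusted p = 0.114), or 9.68-fold. Within a library, the log2 ratio of *Ccnb1* to *Ccnb2* reads was 0.12 ± 0.29 (SD, n = 3) in knockout and -0.25 ± 0.26 (SD, n = 3) in wildtype cultures, with overlapping values (exact two-sided permutation test, p = 0.2, where 0.1 is the smallest value for 3 against 3).

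*Cdk1*, on chromosome 10 from 69335146 to 69352938, encodes the kinase that both B-type cyclins activate. Knockout cultures had 1319, 1287 and 851 normalized counts of it, and wildtype cultures had 426, 299 and 332. Even the lowest knockout culture was well above the highest wildtype culture. From means of 1152 ± 262 and 352 ± 66.1 (SD, n = 3 each), the difference was 1.71 ± 0.23 on the log2 scale (adjusted p = 0.0800), or 3.27-fold. By p, *Cdk1* ranked 40 of 13479 genes, the highest rank among the members. Without wildtype replicate 2 its log2 fold change was 1.60 and its adjusted p 0.0365, and with knockout replicates 1 and 2 summed the values were 1.61 and 0.458.

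*Ccna2*, on chromosome 3 from 36564865 to 36572150, encodes cyclin A2, which works with CDK2 during replication and with CDK1 after it. It had 899, 968 and 517 normalized counts in knockout and 155, 165 and 80.2 in wildtype cultures. As for the B-type cyclins, replicate 3 was the lowest library in each genotype. Means of 794 ± 243 and 134 ± 46.5 (SD, n = 3 each) were 2.57 ± 0.37 apart on the log2 scale (adjusted p = 0.0841), or 5.94-fold. The adjusted p was 0.0347 without wildtype replicate 2 and 0.458 with knockout replicates 1 and 2 summed.

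The E-type cyclins and *Cdk2* act at the start of replication. *Ccne2*, on chromosome 4 from 11191351 to 11204779, encodes cyclin E2 and had 314, 314 and 164 normalized counts in knockout and 93.9, 81.5 and 89.9 in wildtype cultures. The wildtype cultures were close together, and knockout replicate 3 lay between them and the other knockout cultures. The difference was 1.58 ± 0.31 on the log2 scale (adjusted p = 0.114), or 2.98-fold. *Ccne1*, on chromosome 7 from 38097984 to 38107534, encodes cyclin E1 and had 299.5, 278 and 235 normalized counts in knockout and 94.9, 214 and 122 in wildtype cultures. Wildtype replicate 2 came close to the lowest knockout culture. *Ccne1* differed by 0.92 ± 0.34 on the log2 scale (adjusted p = 0.367) with 6 libraries and by 1.31 (adjusted p = 0.0473) without wildtype replicate 2. The log2 ratio of *Ccne1* to *Ccne2* reads was 0.09 ± 0.37 (SD, n = 3) in knockout and 0.61 ± 0.70 (SD, n = 3) in wildtype cultures (exact two-sided permutation test, p = 0.3), and the values overlapped.

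*Cdk2*, on chromosome 10 from 128697939 to 128705031, encodes the partner kinase of the E-type cyclins and of cyclin A. It had 634, 533 and 544 normalized counts in knockout and 494, 355 and 483 in wildtype cultures, so the groups did not overlap but lay close together. On the log2 scale this was 0.36 ± 0.18 (adjusted p = 0.502), with a 95% interval from -0.080 to 0.80. The log2 ratio of *Cdk1* to *Cdk2* reads within a library was 1.06, 1.27 and 0.64 in knockout and -0.21, -0.25 and -0.54 in wildtype cultures. This ratio, which needs no scaling between libraries and was chosen after its values were seen, did not overlap between the genotypes (p = 0.1 by an exact permutation test, two-sided, which cannot go lower with these groups).

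The D-type cyclins, which partner CDK4 and CDK6, overlapped between the genotypes. *Ccnd1*, on chromosome 7 from 144929931 to 144939925, had 13054, 13549.9 and 13267 normalized counts in knockout and 7955, 16858 and 9384 in wildtype cultures. The knockout cultures were nearly equal and lay between wildtype replicate 2 and the other two wildtype cultures. The genotypes differed by 0.22 ± 0.29 on the log2 scale (adjusted p = 0.827), with a 95% interval from -0.48 to 0.93. Without wildtype replicate 2 the difference was 0.61 ± 0.14 (adjusted p = 0.0778), whereas it was 0.013 (adjusted p = 0.987) without wildtype replicate 1 and 0.093 (adjusted p = 0.928) without wildtype replicate 3.

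*Ccnd2*, on chromosome 6 from 127125162 to 127152193, had 23844, 23059 and 32775 normalized counts in knockout and 18703, 56587 and 24702 in wildtype cultures. Wildtype replicate 2 was again the highest library. The difference of -0.33 ± 0.44 on the log2 scale (adjusted p = 0.827, 95% interval from -1.38 to 0.72) turned to 0.29 without wildtype replicate 2. *Ccnd3*, on chromosome 17 from 47505051 to 47599691, had 5093, 5578 and 5224 normalized counts in knockout and 6486, 7124 and 3636 in wildtype cultures. Here the knockout cultures lay within the range of the wildtype cultures. On the log2 scale the difference was -0.12 ± 0.26 (adjusted p = 0.899, 95% interval from -0.73 to 0.50), and 0.062 without wildtype replicate 2. The log2 ratio of *Ccnd1* to *Ccnd2* reads was -0.98 ± 0.29 (SD, n = 3) in knockout and -1.46 ± 0.26 (SD, n = 3) in wildtype cultures (exact two-sided permutation test, p = 0.2). It was highest in knockout replicates 1 and 2 and lowest in wildtype replicate 2, with knockout replicate 3 inside the wildtype range.

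**Figure D2:**
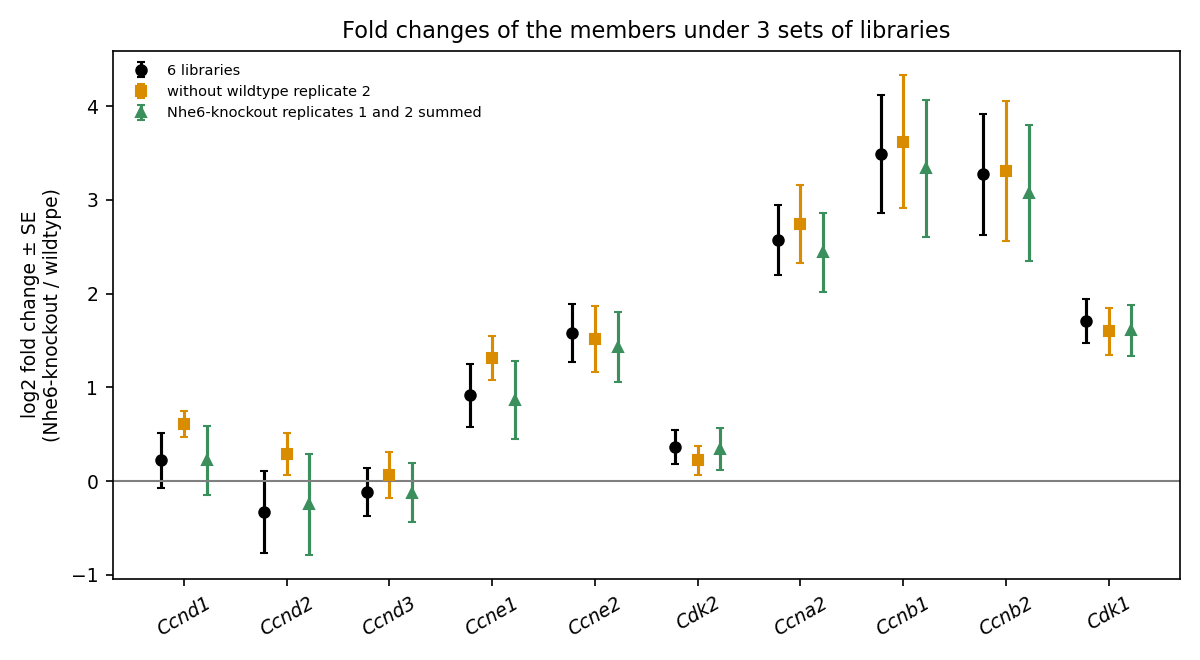
Log2 fold change (*Nhe6*-knockout relative to wildtype) with its standard error for each member from edgeR, with 6 libraries (black circles), without wildtype replicate 2 (orange squares) and with knockout replicates 1 and 2 summed (green triangles). *Ccnb1* and *Ccnb2* were highest in each fit, whereas *Ccnd2* and *Ccnd3* changed sign when wildtype replicate 2 was left out.

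The order of the cultures within a genotype differed among the members. Knockout replicate 3 was the lowest knockout library for *Ccna2*, *Ccnb1*, *Ccnb2*, *Ccne1*, *Ccne2* and *Cdk1*, and the highest for *Ccnd2*. Among wildtype libraries, replicate 3 was lowest for *Ccna2*, *Ccnb1*, *Ccnb2* and *Ccnd3*, and replicate 2 was highest for *Ccna2*, *Ccnd1*, *Ccnd2*, *Ccnd3* and *Ccne1* but lowest for *Cdk1*, *Cdk2* and *Ccne2*. Leaving out knockout replicate 3 gave *Ccnb2* a log2 fold change of 3.61, and leaving out wildtype replicate 3 gave it 2.87. For *Ccnb1* the corresponding values were 3.74 and 3.04.

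Levels of different genes were compared as TMM-scaled CPM per kb of annotated exon. By this scale *Ccnd1* and *Ccnd2* were the most abundant members in both genotypes, at 102 ± 1.92 and 102 ± 20.8 (SD, n = 3) in *Nhe6*-knockout and 87.8 ± 36.8 and 128.5 ± 78.5 (SD, n = 3) in wildtype cultures. *Ccnd3* followed at 21.9 ± 1.04 and 23.8 ± 7.68 (SD, n = 3). In knockout cultures the order then ran from *Ccnb2* (11.0 ± 5.15) through *Cdk1* (8.48 ± 1.92), *Ccna2* (7.06 ± 2.16), *Ccnb1* (4.11 ± 1.41), *Ccne1* (3.69 ± 0.449) and *Cdk2* (3.33 ± 0.322) to *Ccne2* (2.74 ± 0.902). Among these, each gene overlapped the next within the SDs of both, whereas *Ccnd3* stood apart from its neighbours on either side. In wildtype cultures *Cdk1* (2.59 ± 0.486) and *Cdk2* (2.59 ± 0.45) came after the D-type cyclins, followed by *Ccne1* (1.96 ± 0.848), *Ccna2* (1.19 ± 0.413), *Ccnb2* (1.13 ± 0.692), *Ccne2* (0.918 ± 0.0655) and *Ccnb1* (0.364 ± 0.235). Of the genes after *Ccnd3*, *Ccnb1* was the one that stood apart from its neighbour by more than the summed SDs, and *Ccnb1* moved from the last place of 10 in wildtype to place 7 in knockout cultures. The exon length counts every annotated isoform, which lowers the value of genes with long, little used exons.

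**Figure D3:**
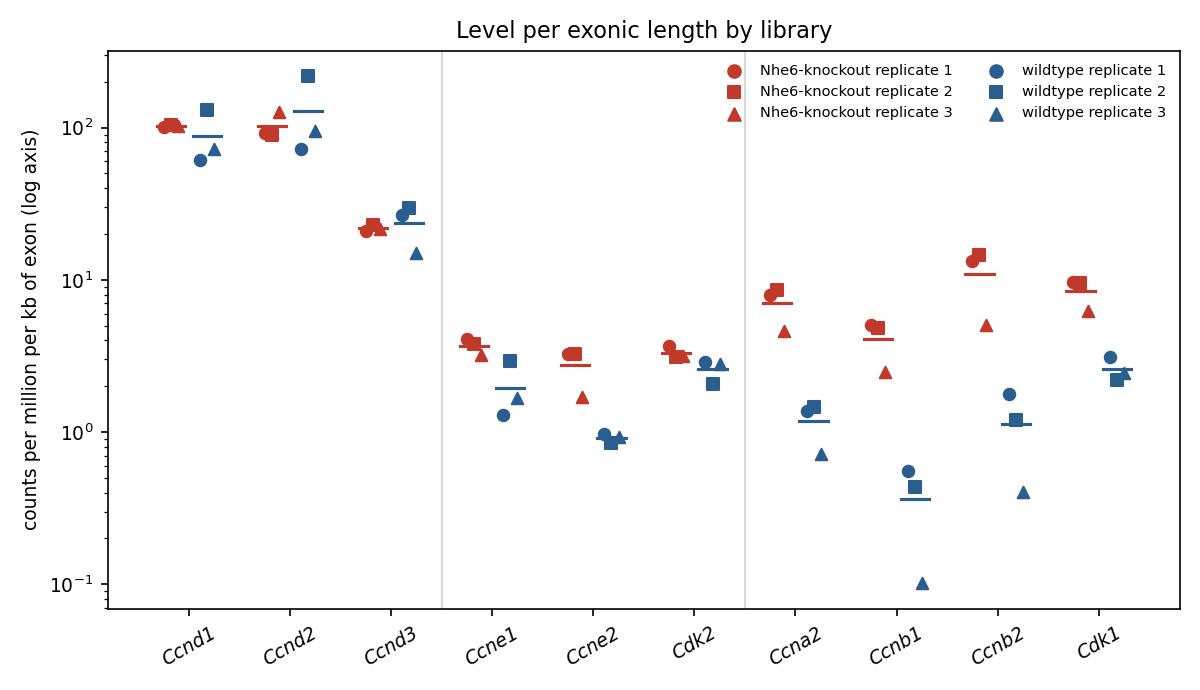
CPM per kb of annotated exon (log axis) for the 10 members in each library, with *Nhe6*-knockout in red, wildtype in blue and a bar at the mean of 3 libraries. *Ccnd1* and *Ccnd2* lay near 102 in knockout cultures, and *Ccnb1* had the lowest wildtype mean, 0.364.

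The genes whose profile over the 6 libraries was most like that of a member were sought among 11117 other genes that averaged 100 normalized counts or more, by the root mean square difference of centred log2 counts. For *Ccne2* these were *Mcm3* (0.024), *Mcm5* (0.153) and *Xaf1* (0.157), of which *Mcm3* and *Mcm5* encode subunits of the replicative helicase. For *Cdk1* they were *Col11a1* (0.0881), *Dbf4* (0.128), which encodes the activator of the CDC7 kinase, and *Slc16a3* (0.141). For *Ccnd1* they were *Thyn1* (0.0766), *Neu3* (0.0767) and *Aldh18a1* (0.08). With 6 libraries that fall into 2 groups, any gene with a similar gap between the genotypes scores as alike.

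Among 34 other cyclins and cyclin-dependent kinases, 30 were tested and 0 passed edgeR's adjusted threshold, with 3 higher and 0 lower at an unadjusted p under 0.05 (6.14% and 5.71% of all genes) and 2 higher with DESeq2 (2.85%). Their median log2 fold change was 0.15, and 6 of the 30 lay entirely higher in knockout cultures and 0 entirely lower, against 10.3% and 9.57% of all genes. *Ccnf*, which encodes cyclin F, a substrate receptor of a ubiquitin ligase active late in the cycle, had 297, 308 and 169 normalized counts in knockout and 38.1, 53.7 and 18.2 in wildtype cultures. The libraries of each genotype stood in the same order as for *Ccna2*, and *Ccnf* differed by 2.81 ± 0.47 on the log2 scale (adjusted p = 0.0971). *Cdk4*, the kinase partner of the D-type cyclins, had 6603, 6902 and 6239 against 5343, 4443 and 4815, a log2 fold change of 0.44 (adjusted p = 0.254, and 0.0386 with DESeq2). *Cdk18* had a log2 fold change of 0.85 (adjusted p = 0.382, and 0.0379 without wildtype replicate 2). *Cdk6* had 56.8 to 88.2 normalized counts in knockout and 35.2 to 91.8 in wildtype cultures. *Cdk7*, *Cdk8* and *Cdk9*, kinases of the transcription machinery, overlapped between the genotypes, with log2 fold changes of 0.27, 0.36 and 0.17.

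Of 40 listed regulators of these kinases, all were tested and 0 passed the adjusted threshold of edgeR's test, against 12 with DESeq2 (4.69% of all genes), of which 11 were higher and *Rbl2* was lower. At an unadjusted p under 0.05, 17 were higher and 1 was lower (6.14% and 5.71% of all genes), and the median log2 fold change was 0.25. Knockout cultures lay entirely above wildtype cultures for 19 and entirely below for 1 (10.3% and 9.57% of all genes). The genes without overlap included activators and inhibitors of CDK1. *Pkmyt1*, a kinase that inhibits CDK1, had 57.7 to 99.8 normalized counts in knockout and 34.2 to 55.7 in wildtype cultures. *Cdkn3*, a phosphatase that inactivates these kinases, had 97.5 to 176 and 17.1 to 40.1 (2.27 ± 0.44 on the log2 scale, adjusted p = 0.114 in edgeR, and 0.000155 with DESeq2). *Cdc25c*, a phosphatase that activates CDK1, had 119, 111 and 54.9 normalized counts in knockout and 15.6, 10.3 and 5.35 in wildtype cultures (3.16 ± 0.54 on the log2 scale, adjusted p = 0.0985). *Plk1*, a mitotic kinase, had a log2 fold change of 3.03 (adjusted p = 0.0931), and *Foxm1*, a transcription factor of mitotic genes, had 1.34 (adjusted p = 0.0869). *Cks1b* and *Cks2*, small subunits that bind these kinases, had 1.00 (adjusted p = 0.0952) and 1.44 (adjusted p = 0.154). Without wildtype replicate 2, 5 of the 40 were called higher (1.62% of all genes), namely *Plk1*, *Foxm1*, *Cks1b*, *E2f7* and *E2f8*.

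The listed regulators *Cdc20*, *Ube2c*, *Fbxo5* and *Fzr1* act on the destruction of cyclin B. Of them, 3 had higher counts in every knockout culture than in any wildtype culture, as did 10.3% of all genes. *Cdc20* and *Ube2c*, an activator and an E2 enzyme of the ubiquitin ligase that marks B-type cyclins for destruction, had log2 fold changes of 2.55 (adjusted p = 0.114) and 3.41 (adjusted p = 0.110). *Fbxo5*, an inhibitor of this ligase, had 1.25 (adjusted p = 0.152). *Fzr1*, its other activator, had 587, 691 and 651 normalized counts in knockout and 665, 654 and 358 in wildtype cultures, which overlapped.

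Of the 7 kinase inhibitors of the CIP/KIP and INK4 families, 6 overlapped between the genotypes. *Cdkn1a* had 6815, 6921 and 9196 normalized counts in knockout and 6293, 18005 and 4480.0 in wildtype cultures, *Cdkn1b* had 2524 to 2689 and 1088 to 2977, and *Cdkn1c* had 3529 to 3816 and 2050.5 to 9968. In each of these 3 genes the wildtype range enclosed the knockout range, but only with wildtype replicate 2 included. Without it the edgeR log2 fold changes were 0.50 for *Cdkn1a* (adjusted p = 0.279), -0.19 for *Cdkn1b* (0.395) and -1.10 for *Cdkn1c* (0.0778). *Cdkn2a*, *Cdkn2b* and *Cdkn2d* also overlapped, with log2 fold changes between -0.088 and 0.16. *Cdkn2c* did not overlap, at 1109 to 1398 and 289 to 1076 (log2 fold change 0.71, adjusted p = 0.614). *Rb1*, the pocket protein that D-type cyclin kinases phosphorylate, had a log2 fold change of -0.39 (adjusted p = 0.565). *Rbl2*, a related pocket protein, had 2815, 2916 and 3007 normalized counts in knockout and 3653, 3671 and 3788 in wildtype cultures, without overlap (-0.35 ± 0.10 on the log2 scale, adjusted p = 0.254, and 0.0222 with DESeq2). *E2f1* overlapped at 865 to 957 and 715 to 1998, whereas *E2f7* and *E2f8*, which encode atypical repressors of the family, had log2 fold changes of 2.74 (adjusted p = 0.108) and 2.57 (adjusted p = 0.189).

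All 16 listed proliferation genes had a log2 fold change above 0, with a median of 1.83, and 0 passed the adjusted threshold of edgeR's test, against 13 at an unadjusted p under 0.05 (6.14% of all genes higher) and 11 with DESeq2 (2.85% higher). Without wildtype replicate 2, 6 of the 16 passed (1.62% of all genes higher). *Top2a*, the topoisomerase of chromosome separation, had 1801 to 3358 normalized counts in knockout and 157 to 352 in wildtype cultures (log2 fold change 3.34, adjusted p = 0.0652). *Mki67* had 1138 to 2644 and 71.7 to 311 (3.45, adjusted p = 0.1003). *Pcna*, the replication clamp, overlapped at 1100.0 to 1495 and 1057 to 1342 (0.18, adjusted p = 0.744), as did *Mcm2*, *Mcm4* and *Mcm6*. *Mcm3*, *Mcm5* and *Mcm7* did not overlap, with log2 fold changes of 1.54, 1.84 and 0.59.

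**Figure D4:**
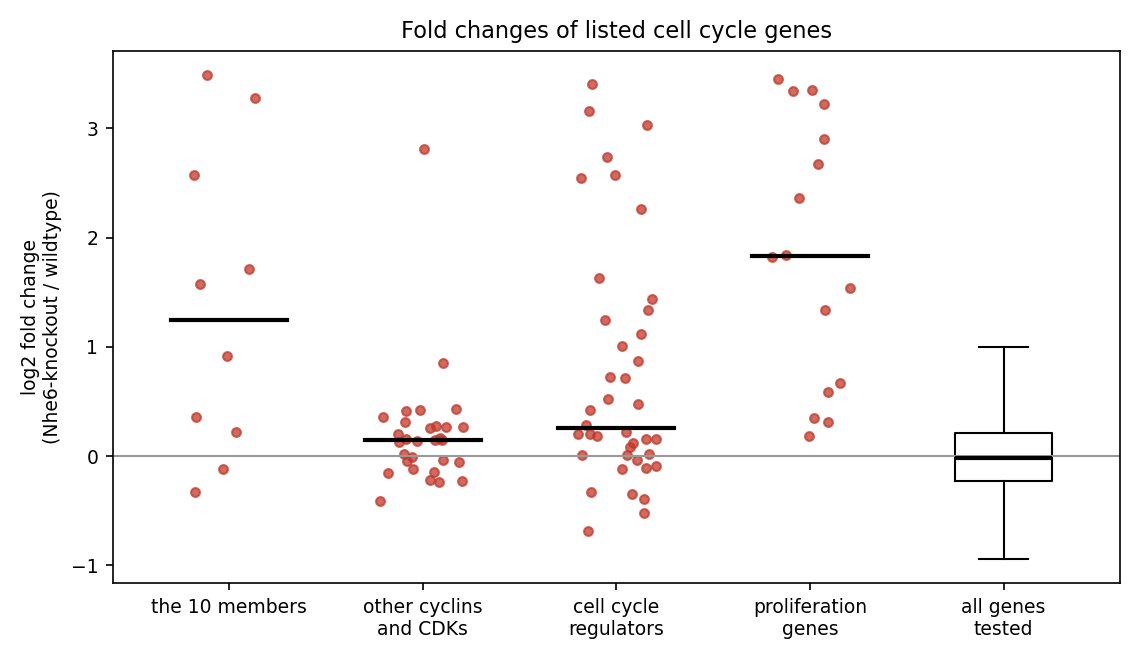
Log2 fold changes (*Nhe6*-knockout relative to wildtype) of each tested gene of the 10 members and of 3 other lists (points, with a bar at the median), beside all 13479 genes tested (box from the lower to the upper quartile, line at the median, whiskers at percentiles 5 and 95). The medians were 1.25, 0.15, 0.25 and 1.83, against -0.016 for all genes.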

How the data were processed

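Poly(A)-enriched stranded libraries of 6 cultures were sequenced, and the authors deposited raw counts of reads per gene symbol, with mm10 (GRCm38) as reference. The submitters' processing notes name STAR 2.7.7a, HTSeq 0.13.5 and DESeq2 1.26.0, without their roles. Reads outside genes or at several sites, 22.2% of the table, were left out. Columns were matched to cultures by genotype and replicate number. Genes were filtered with filterByExpr (minimum count 10), normalized by TMM and compared with the two-sided quasi-likelihood test of edgeR 4.0.16 (R 4.3.3), with genotype alone in the design and Benjamini-Hochberg adjustment over 13479 genes. The standard error is the log2 fold change divided by the square root of F. Ratios used a pseudocount of 0.5. Alternatives used DESeq2 1.42.0, limma-voom 3.58.1, other scalings and filters, a replicate block and each culture left out. Summing *Nhe6*-knockout replicates 1 and 2 was added after seeing the data. The members and lists were chosen with earlier results of these data known. All 10 members, genes of the lists and the 3 genes most like *Cdk1*, *Ccne2* and *Ccnd1* could be named. Tests were tried on simulated data. The check of the disrupted gene is not reported here. Positions and exon lengths came from GENCODE M21, with overlapping exons merged. With 3 cultures a group, p-values set each difference against the spread between these cultures. Except where summed, *Nhe6*-knockout replicates 1 and 2, which were far closer than other pairs, were treated as separate cultures. Whether they are independent is not known here.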

Additional observations from a re-analysis of the deposited data

How the results depend on the processing

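Across 15 alternatives, 8 of the 10 members kept the direction of their log2 fold change. *Ccnd2* (0.29) and *Ccnd3* (0.062) reversed without wildtype replicate 2, and with knockout replicates 1 and 2 also summed (0.37 and 0.061). Leaving out 1 culture at a time gave -0.62 to 0.29 for *Ccnd2*, -0.37 to 0.062 for *Ccnd3*, 0.013 to 0.61 for *Ccnd1*, 3.04 to 3.92 for *Ccnb1* and 1.60 to 1.88 for *Cdk1*. It gave 0 to 3 members, 0 to 2 other cyclins and kinases, 0 to 5 regulators, 0 to 6 proliferation genes and 0 to 395 genes in all past the adjusted threshold, against 0, 0, 0, 0 and 9 with 6 libraries, and the upper values were those without wildtype replicate 2. DESeq2 called 5 members, 2 other cyclins and kinases, 12 regulators, 11 proliferation genes and 627 genes in all. Without a filter beyond 1 count, 21 genes and 1 proliferation gene (*Top2a*) passed, and with at least 10 counts in every library 21 genes passed. Summing knockout replicates 1 and 2 left 1 gene, *Hprt*, with or without wildtype replicate 2. With a replicate block, 2 genes passed, *Hprt* and *Top2a*, the latter 1 of the proliferation genes. The replicate numbers mark nothing shared in the labels, deviations of same-numbered libraries correlated at 0.207, -0.189 and 0.111, and not every library correlated best with its own number. The cause of these differences was not tested. The 3 ratios of paralogs kept their sign in every fit without 1 culture or without a pseudocount. The lowest count of a member was 11 reads, of *Ccnb1* in wildtype replicate 3.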
